A study of Mus musculus with 3 samples.

Results

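The genes described here are 59 genes of the BMP, TGF-beta and Nodal signalling pathways, and the question was which of them carried an Isl1 peak in cardiac progenitor cells (CPCs) and where that peak lay. Members were chosen by name: identical repeated lines of the deposited peak list were dropped, and every peak whose assigned gene was 1 of the 59 was kept. This gave 77 of the 14082 distinct Isl1 peaks, at 46 of the 59 genes. The 59 genes comprised 24 ligands or ligand subunits, 13 receptors and co-receptors, 8 Smads, 8 antagonists outside the cell or in its membrane, 4 regulators inside the cell and 2 genes of processing and of the matrix.

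Isl1, a transcription factor with LIM and homeodomains, marks progenitors of the second heart field. Its binding was mapped by ChIP-Seq, in which crosslinked chromatin is pulled down with an antibody and sequenced, here with an anti-Isl1 antibody of the Developmental Studies Hybridoma Bank. The 2 Isl1 ChIP replicates and the 1 input sample, chromatin that was not pulled down, all came from the mouse embryonic stem cell (ESC) line E14 Tg(Nkx2-5-EmGFP), which carries a green fluorescent reporter for the cardiac gene Nkx2-5. The ESCs were differentiated into CPCs and harvested at day 5. Ligands of the pathways described here were part of the directed protocol that the paper describes. In it cells were treated with BMP4, first in the ESC medium and later at the second aggregation together with Activin A and VEGF. They were then cultured with VEGF, bFGF and FGF10. The paper also describes a hanging-drop method, and its ChIP-Seq methods do not say which of them gave these cells. All samples came from this single line, and the list gives binding positions without expression values, so the cell type label could not be checked against marker genes. The list combines both replicates and gives no score or read count per peak. The depth is therefore unknown, the spread between replicates cannot be stated, and no test was made. Intervals are exact (Clopper-Pearson) 95% binomial intervals, which cover counting error only, and a gene without a peak is a gene for which none was called and assigned.

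Ligands of these pathways are secreted as dimers and assemble type I and type II receptor kinases at the cell surface. The type I receptor phosphorylates receptor-regulated Smads, Smad1, Smad5 and Smad9 in the BMP branch and Smad2 and Smad3 in the TGF-beta, activin and Nodal branch, which join Smad4 and enter the nucleus. Extracellular antagonists trap the ligands, and inhibitory Smads, ubiquitin ligases and co-repressors damp the signal inside the cell. In the heart, BMP signals help to bring second heart field progenitors into differentiation, Nodal acts in mesoderm formation and left-right patterning, and TGF-beta signals act in the formation of cushions and valves.

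The sequences shown first are 120-bp stretches without annotated exons from the peak nearest to the start site, shown as examples of the CG-rich sequence within these peaks. Among the 40 members present on a RefSeq promoter table, they come from those with the most peaks and, for each role, from the gene not yet taken whose peak lay closest to the transcription start site (TSS). Stretches at Acvr2a, Chrd and Ski lie at the peak centre, whereas those at Bmper, Ltbp1 and Smad6 lie 344, 412 and 603 bp from it and the others 55 to 88 bp. They are from the mm9 assembly, 5′ to 3′ on the strand of the gene, with each CG dinucleotide in capitals. The stretch at Acvr2a is chr2:48669507-48669626 (plus strand), that at Acvr1b chr15:101004436-101004555 (plus), that at Gdf7 chr12:8308761-8308880 (minus), that at Smad9 chr3:54559384-54559503 (plus), that at Smad6 chr9:63867892-63868011 (minus), that at Chrd chr16:20732783-20732902 (plus), that at Bmper chr9:23027400-23027519 (plus), that at Ski chr4:154596722-154596841 (minus) and that at Ltbp1 chr17:75404788-75404907 (plus). The Smad6 stretch lies in an intron of Smad6, the Chrd stretch in an intron of the neighbouring Thpo, and the other stretches lie outside annotated genes.
Gdf7: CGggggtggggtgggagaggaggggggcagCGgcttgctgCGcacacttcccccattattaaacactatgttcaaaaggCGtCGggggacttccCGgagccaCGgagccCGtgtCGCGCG
Acvr1b: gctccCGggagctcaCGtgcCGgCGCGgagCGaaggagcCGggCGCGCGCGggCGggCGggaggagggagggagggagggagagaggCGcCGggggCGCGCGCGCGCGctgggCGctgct
Acvr2a: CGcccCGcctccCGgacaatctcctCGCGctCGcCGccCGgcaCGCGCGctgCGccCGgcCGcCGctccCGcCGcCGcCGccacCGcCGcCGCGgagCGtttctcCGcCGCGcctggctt
Smad9: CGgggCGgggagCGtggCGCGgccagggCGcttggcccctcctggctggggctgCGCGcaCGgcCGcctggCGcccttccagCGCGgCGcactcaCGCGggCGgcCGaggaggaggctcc
Smad6: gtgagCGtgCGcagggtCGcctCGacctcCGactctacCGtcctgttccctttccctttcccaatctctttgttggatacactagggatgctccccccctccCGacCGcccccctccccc
Chrd: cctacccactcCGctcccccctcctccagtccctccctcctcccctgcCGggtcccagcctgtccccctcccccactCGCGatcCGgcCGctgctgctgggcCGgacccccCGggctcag
Bmper: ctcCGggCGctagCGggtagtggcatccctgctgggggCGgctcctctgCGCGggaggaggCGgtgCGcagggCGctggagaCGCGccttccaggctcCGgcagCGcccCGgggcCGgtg
Ski: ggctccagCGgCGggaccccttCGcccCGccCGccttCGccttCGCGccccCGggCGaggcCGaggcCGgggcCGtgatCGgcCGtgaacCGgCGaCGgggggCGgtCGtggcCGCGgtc
Ltbp1: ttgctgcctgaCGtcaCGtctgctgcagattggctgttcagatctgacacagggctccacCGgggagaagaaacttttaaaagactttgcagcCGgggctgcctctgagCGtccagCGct
The stretches ranged from 6 CG dinucleotides and 56.7% GC at Ltbp1 to 27 CG dinucleotides and 83.3% GC at Acvr2a. Away from the centre they need not have the composition of the centre, whose 200 bp had 75% GC at Ltbp1 and 78.5% at Smad6 where the stretches shown had 56.7 and 64.2%.

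Among the 59 members, 46 had at least 1 assigned peak (78.0%, interval 65.3 to 87.7%), where 39.7% of all 20306 protein-coding genes compared had one. A peak within 1 kb of the TSS was present at 35 members (59.3%, interval 45.7 to 71.9%) against 24.8% of all genes, and a peak within 10 kb at 41 members against 28.9%. Peaks of at least 500 bp were found at 44 members against 38.6% of all genes. Peaks beyond 10 kb were assigned to 17 members (28.8%, interval 17.8 to 42.1%), where the share of all genes was 16.6%. The members also differed from other genes in properties that move with these counts. The GC content within 500 bp of the TSS had a median of 64.2% for the members and 55.6% for the other genes, and the territory of a gene, the genome nearest to its own TSS, had a median of 110 kb for the members and 46.4 kb for the others.

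By role, a peak was assigned to 15 of 24 ligands (62.5%, interval 40.6 to 81.2%), 11 of 13 receptors (84.6%, interval 54.6 to 98.1%), 8 of 8 Smads (100%, interval 63.1 to 100%), 6 of 8 antagonists (75%, interval 34.9 to 96.8%), 4 of 4 intracellular regulators (interval 39.8 to 100%) and 2 of 2 genes of processing and matrix. Within 1 kb the counts were 8 of 24 ligands (33.3%, interval 15.6 to 55.3%), 9 of 13 receptors (69.2%, interval 38.6 to 90.9%), 7 of 8 Smads (87.5%, interval 47.3 to 99.7%), 5 of 8 antagonists (62.5%, interval 24.5 to 91.5%) and again all 4 intracellular regulators and both genes of processing and matrix. Ligands had the lowest share of start-site peaks, but the intervals of all roles overlapped. The median start-site GC content was 58.1% for ligands, 64.2% for receptors and 67.5% for genes of processing and matrix. It was 68.5% for Smads, 68.6% for antagonists and 76.1% for intracellular regulators. Ligands were lowest in both respects. Antagonists had a higher median GC content than receptors, with start-site peaks at 5 of 8 genes beside 9 of 13. The part of base composition in the difference between roles was not tested.

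**Figure D1:**
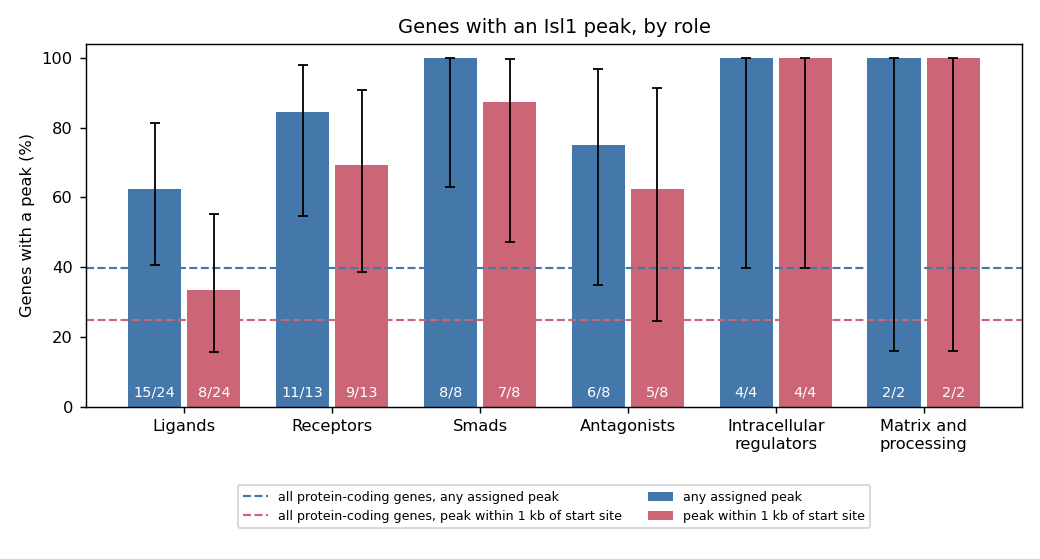
Share of genes (%, bars) with any assigned Isl1 peak (blue) and with a peak within 1 kb of the TSS (red) for each role, with exact 95% intervals as error bars and the counts at the foot of each bar. Dashed lines mark the shares of all protein-coding genes, 39.7% and 24.8%, and a start-site peak was present at 8 of 24 ligands and at 7 of 8 Smads.

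Of the 9 BMP ligand genes, 5 had a peak. At Bmp2, a ligand of the outflow tract and atrioventricular canal, a peak of 1379 bp (chr2:133377644-133379023) had its midpoint 438 bp downstream of the TSS in the UTR of the transcript. Bmp6 carried the widest start-site peak of the ligands, 1904 bp (chr13:38436803-38438707), at 170 bp. Bmp8a and Bmp8b, neighbouring copies on chromosome 4 with roles in the germ line, had peaks of 813 and 622 bp at 582 and 161 bp, and both peak centres were single-copy. Bmp3, which opposes other BMPs, had 4 peaks and no peak within 1 kb. The nearest of the 4 lay 17.8 kb upstream and was the only single-copy peak among them. Bmp4, Bmp5, Bmp7 and Bmp10 had no assigned peak, which included the gene of the BMP4 used in the directed protocol. The peak nearest to the Bmp4 TSS was 10.0 kb away, beyond the 3′ end of the gene at chr14:46999844-47000478, and was assigned to the annotated transcript Gm15217, 962 bp from its start. For Bmp7 the nearest peak was 59.999 kb away at the TSS of Rae1, for Bmp5 96.3 kb and for Bmp10, a ligand of ventricular trabeculae, 96.8 kb.

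Of the 8 growth and differentiation factor (GDF) genes, 6 had a peak, 3 of them within 1 kb. Gdf7 had a start-site peak of 1009 bp (chr12:8308243-8309252) with its midpoint 13 bp from the TSS, and a further peak of 1171 bp in its coding exon at 3.46 kb. The peak of Gdf11, a regulator of axial patterning, was centred in the coding exon at 141 bp with 85.0% GC in its central 200 bp (chr10:128328011-128329256), the highest of the ligand peaks. The Gdf10 peak lay 99 bp upstream. Gdf1, a partner of Nodal in left-right patterning, and Gdf15, a stress-induced ligand, had single peaks in their own coding exons, at 1.44 and 2.20 kb. The only peak of Gdf3 lay 5.53 kb upstream at sequence whose 31-mers occurred in the genome a median of 26598 times, the highest copy number among the member peaks. Gdf5 and Gdf6 had no peak, and the nearest ones were 120.3 and 83.8 kb away.

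Of the TGF-beta genes, Tgfb1 had a peak of 873 bp 75 bp downstream of its TSS (chr7:26471660-26472533), while Tgfb2 and Tgfb3 had none, with the nearest peaks 186 and 329 kb away. All 3 activin and inhibin subunit genes had a peak and none had one within 1 kb. Inhba, which encodes the subunit of Activin A, had 5 peaks, more than any other member except Bmper, and all lay between 43.0 and 596 kb from its TSS. Only the peak 88.8 kb downstream (chr13:16192006-16192875) was at single-copy sequence. Inhbb carried the widest of the 77 peaks, 2672 bp (chr1:121316381-121319053), centred 1.11 kb downstream in the UTR with 84.0% GC, beside a peak of 685 bp at 20.2 kb. Inha, the inhibin alpha subunit, had a peak of 479 bp in its coding exon at 2.19 kb. Nodal had none, and the closest was at the TSS of Eif4ebp2, 34.6 kb from that of Nodal.

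**Figure D2:**
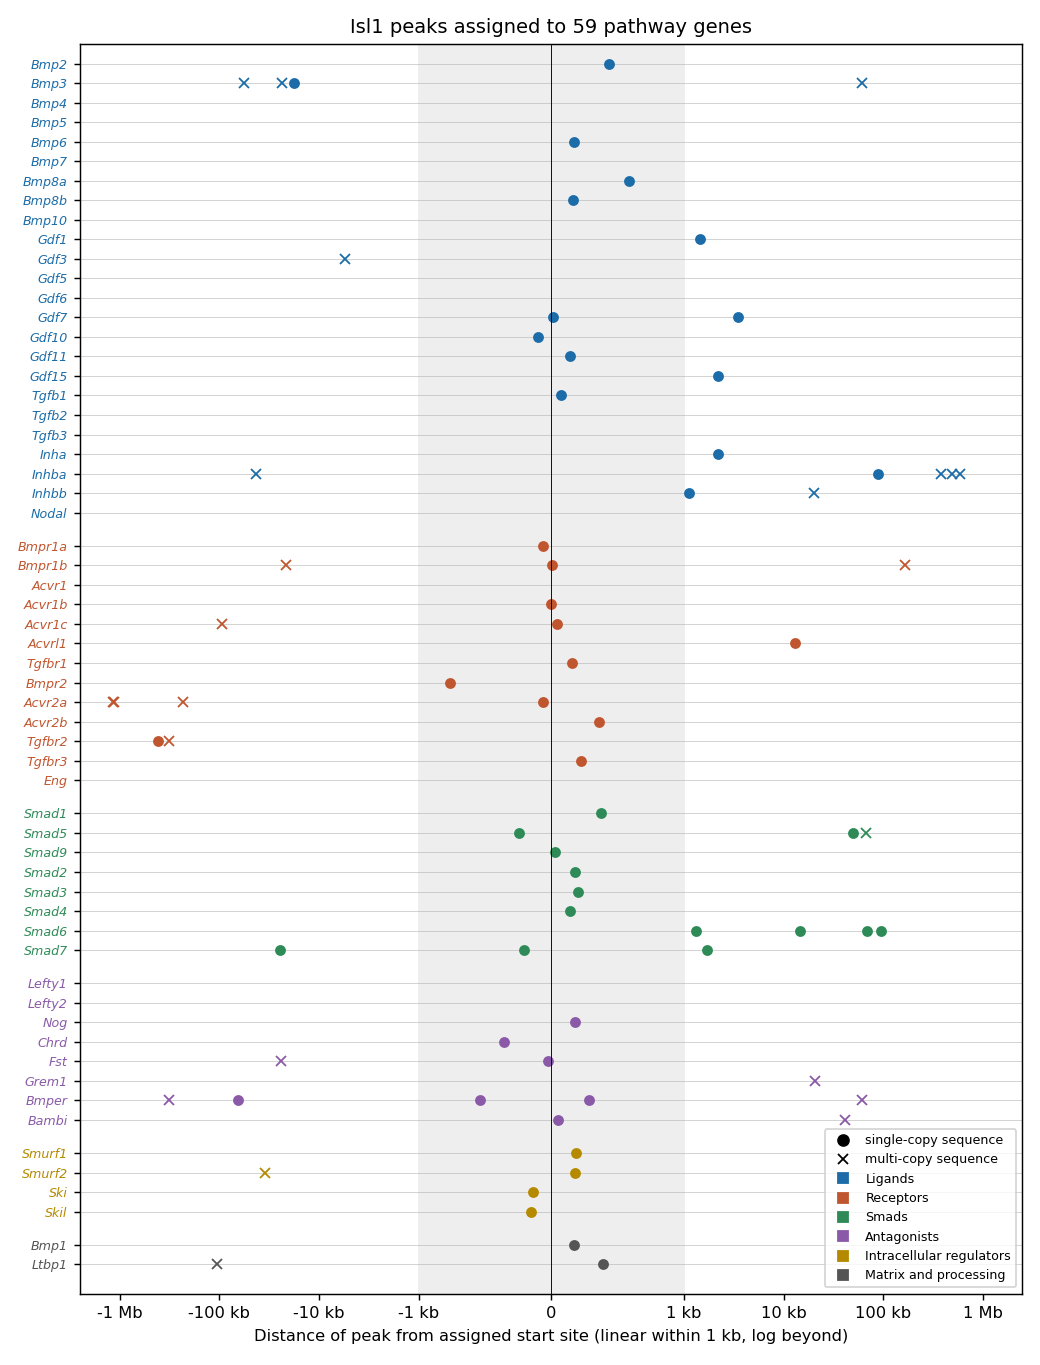
Position of the 77 Isl1 peaks relative to the TSS of the assigned gene (horizontal axis, linear within 1 kb and logarithmic beyond, negative upstream) for the 59 genes, coloured by role. Circles are peaks at single-copy sequence and crosses peaks at multi-copy sequence, the shaded band is the first kb on either side, and 13 genes have no symbol because no peak was assigned to them.

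Among the receptors, 6 of 7 type I genes, all 4 type II genes and 1 of 2 co-receptor genes had a peak. Acvr1b, which transmits activin and Nodal signals, had a peak of 1174 bp at 6 bp upstream (chr15:101003963-101005137), and Acvr1c a peak of 843 bp at 46 bp downstream. The type II receptor Acvr2a had a peak of 1174 bp 62 bp upstream (chr2:48668980-48670154) with 38 CG dinucleotides in its central 200 bp, and Acvr2b a peak of 1756 bp 357 bp downstream (chr9:119310775-119312531). Of the BMP receptors, Bmpr1a had a peak of 1622 bp 63 bp upstream (chr14:35314984-35316606), Bmpr1b one of 733 bp 7 bp downstream and Bmpr2 one of 1645 bp 763 bp upstream (chr1:59819538-59821183). Bmpr1a, Bmpr1b and Bmpr2 were the receptors whose start-site peaks lay at the lowest start-site GC content, 55.3, 59.4 and 53.6%. Tgfbr1, the TGF-beta type I receptor, had a peak of 1496 bp in its coding exon at 157 bp (chr4:47365503-47366999), and Tgfbr3, a co-receptor that presents TGF-beta ligands, one of 1187 bp at 227 bp.

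The remaining receptors with a peak had it away from the TSS. Acvrl1, an endothelial type I receptor, had a single-copy peak of 729 bp in its own intron at 12.9 kb (chr15:100971507-100972236), 3.84 kb from the closest annotated Acvrl1 start. Tgfbr2, the type II partner of Tgfbr1, had only peaks 321 kb upstream, at multi-copy sequence, and 412 kb upstream. The farther one lay in an intron of Rbms3, whose annotated TSS was the closer at 236 kb. Eng, the endothelial co-receptor endoglin, and Acvr1 had no assigned peak. At Acvr1, a BMP type I receptor, this came from the assignment. A single-copy peak of 1416 bp with 81.5% GC (chr2:58418839-58420255) had its midpoint 21 bp from an annotated Acvr1 start, in the UTR of an Acvr1 transcript, and the list gave it to Upp2, whose start was 198 bp away. The start-site GC content of Acvr1 was 78.4%. With each peak given instead to the closest annotated protein-coding TSS, 48 of 59 members had a peak, Acvr1 and Tgfb2 being the additions, against 41.3% of all genes. The peak gained by Acvr1 was at its start and the 2 gained by Tgfb2 were 186 and 208 kb away. With any midpoint within 10 kb of the gene body counted, 45 members had a peak against 43.4% of all genes. Bmp4 was among the 45, through the peak beyond its 3′ end that the list gave to Gm15217.

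Every Smad gene had a peak. Their peaks numbered 15, and 14 of them were at single-copy sequence. The start-site peaks of Smad1, Smad2, Smad3, Smad4 and Smad7 were 1524 to 1660 bp wide, whereas those of Smad5 and Smad9 were 1155 and 786 bp. For the BMP branch, the Smad1 peak (chr8:81922225-81923755) was centred in an intron at 377 bp, the Smad5 peak (chr13:56804207-56805362) 245 bp upstream and the Smad9 peak (chr3:54559138-54559924) 27 bp downstream. For the TGF-beta branch, the Smad2 peak lay at 181 bp and the Smad3 peak (chr9:63604773-63606433) at 198 bp. The peak of Smad4, the partner shared by both branches, was at 143 bp and had the highest GC content of the 77 peaks, 87.5% with 42 CG dinucleotides in its central 200 bp. The inhibitory Smads, Smad6 and Smad7, had several peaks each, all single-copy. Smad7 had 3, at 24.4 kb upstream, at 204 bp upstream and at 1.69 kb in its coding exon. Smad6 had 4 and was the only Smad without a peak within 1 kb: its nearest (chr9:63867796-63869313) was 1517 bp wide and centred in the coding exon at 1.31 kb, and the others lay in an intron at 14.7 kb, in a coding exon at 68.2 kb and downstream of the gene at 94.3 kb. Smad5 had peaks beyond its gene at 49.7 kb, single-copy, and at 67.7 kb, where the 31-mers occurred a median of 20 times.

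Over the start-site peaks, the median width was 1530 bp for the Smads (range 786 to 1660 bp, n = 7), 1187 bp for the receptors (733 to 1756 bp, n = 9) and 941 bp for the ligands (622 to 1904 bp, n = 8). The ranges overlapped. The 36 member peaks within 1 kb had a median width of 1207.5 bp, beside 1049 bp for the other 5380 start-site peaks.

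**Figure D3:**
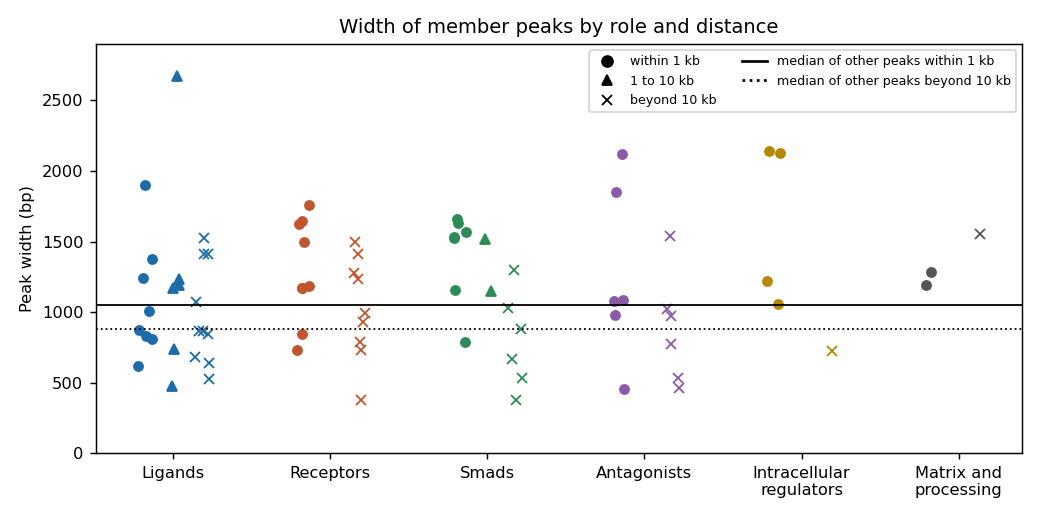
Width in bp of each of the 77 peaks by role, drawn as circles within 1 kb of the TSS, triangles from 1 to 10 kb and crosses beyond. Lines mark the medians of the other peaks within 1 kb (solid, 1049 bp) and beyond 10 kb (dotted, 882 bp), and the widest peak is that of Inhbb at 2672 bp.

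Among the antagonists, Nog, which encodes the BMP trap noggin, had the widest peak at 2121 bp (chr11:89162638-89164759), centred 175 bp downstream. Chrd, encoding chordin, had a peak of 1853 bp 357 bp upstream (chr16:20731917-20733770) whose midpoint lay in an intron of Thpo. The peak of Fst, encoding the activin trap follistatin, was 1088 bp wide and centred 22 bp upstream (chr13:115248637-115249725), and Fst had a further multi-copy peak 23.9 kb upstream. Bambi, a membrane pseudoreceptor, had a peak of 1077 bp at 48 bp and a further multi-copy peak at 41.2 kb. Bmper, a secreted BMP-binding protein of endothelial cells, had 5 peaks, a pair of them at its TSS, 459 bp wide at 538 bp upstream and 978 bp wide at 283 bp downstream (chr9:23027314-23028292). Grem1, encoding gremlin, had only a peak of 462 bp at 20.7 kb, whose 31-mers occurred a median of 25500 times. Lefty1 and Lefty2, the Nodal antagonists, had no peak, like Nodal itself. The peak nearest to both was that at the TSS of H3f3a, 121 kb from Lefty1 and 79.4 kb from Lefty2.

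All 4 intracellular regulators had a start-site peak. Ski and Skil, co-repressors of Smad complexes, had peaks of 2131 bp (chr4:154595717-154597848) and 2145 bp (chr3:30992752-30994897), the widest member peaks within 1 kb, centred 138 and 156 bp upstream at 86.5 and 83.5% GC. The ubiquitin ligases Smurf1 and Smurf2, which target Smads and receptors for degradation, had peaks of 1224 and 1056 bp at 183 and 178 bp downstream, and Smurf2 had a further multi-copy peak 34.5 kb upstream. Bmp1, a protease that cleaves chordin, had a peak of 1191 bp at 174 bp (chr14:70919298-70920489). Ltbp1, which anchors latent TGF-beta in the matrix, had a peak of 1282 bp in its coding exon at 390 bp and a further multi-copy peak 107 kb upstream.

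Start-site peaks were more frequent among members with GC-rich starts. Members with a peak within 1 kb had a median start-site GC content of 69.4% (range 53.6 to 79.4%, n = 35) and those without 57% (range 37.0 to 78.4%, n = 24), and other genes showed the same order with 64.2% and 53.0%. With start sites binned by GC content, a start-site peak was found at 4 of 18 members between 50 and 60% (22.2%, interval 6.41 to 47.6%) against 12.8% of all genes in that bin. Between 60 and 70% it was found at 16 of 24 members (66.7%, interval 44.7 to 84.4%) against 53.8%. At 70% and above it was found at 15 of 16 members (93.8%, interval 69.8 to 99.8%) against 87.8%. The exception was Acvr1, where the list gave a peak 21 bp from an annotated Acvr1 start to Upp2. Below 50% a start-site peak was found at 0 of 1, Bmp5, against 3.78%. In each bin the members' share was read beside that of all genes, and the latter lay within the interval of the former. The 12 ligands with the lowest start-site GC content, from Bmp5 at 37.0% to Tgfb2 at 57.1%, had no start-site peak, and of the 12 from Bmp6 at 59.1% to Gdf11 at 71.5%, 8 had one. Bmp7 at 69.8% and Gdf6 at 68.5% were the ligands of highest GC content with no peak assigned at any distance.

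**Figure D4:**
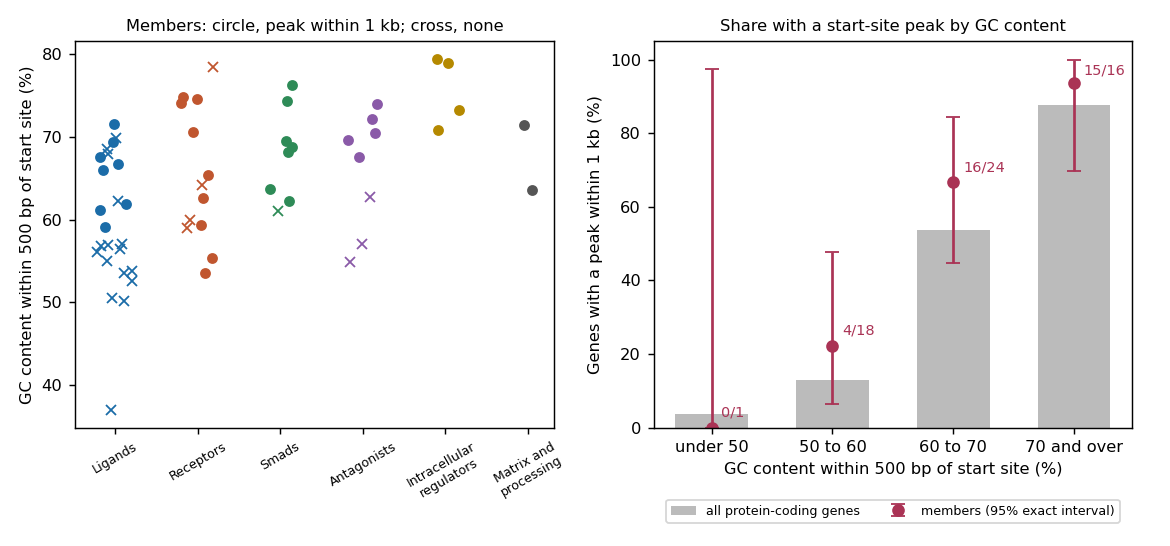
Left, GC content (%) within 500 bp of the TSS of each of the 59 genes by role, as circles where a peak lay within 1 kb and as crosses where none did. Right, share of genes (%) with a peak within 1 kb by GC bin, as grey bars for all protein-coding genes and as points with exact 95% intervals for members; the bars rise from 3.78% below 50% GC to 87.8% at 70% and above, and 15 of 16 members in the highest bin had a peak.

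Of the 77 peaks, 36 lay within 1 kb of the TSS (46.8%, interval 35.3 to 58.5%), 8 from 1 to 10 kb and 33 beyond 10 kb (42.9%, interval 31.6 to 54.6%). Among the other 14005 peaks 38.4% lay within 1 kb and 51.1% beyond 10 kb. Of the 36 start-site peaks, 12 were centred upstream of the TSS (33.3%, interval 18.6 to 51.0%), where the share for other start-site peaks was 18.9%. Of the 8 peaks from 1 to 10 kb, 6 had their midpoint in a coding exon, at Gdf1, Gdf7, Gdf15, Inha, Smad6 and Smad7 (75%, interval 34.9 to 96.8%), compared with 26.5% of other peaks at such distances. These classes follow the deposited distances. From the closest annotated start of the same gene, this Smad7 peak lay 65 bp away and the Bmpr2 start-site peak 1121 bp, and the share within 1 kb was again 46.8%. Beyond 10 kb, 24 of 33 midpoints were intergenic, 8 intronic and 1, in Smad6, in a coding exon. The closest annotated protein-coding TSS was that of the assigned gene for 73 of the 77 peaks (94.8%, interval 87.2 to 98.6%) and for 91.2% of the 11938 other peaks assigned to a protein-coding gene, the 4 exceptions being distal peaks of Inhba, Acvr1c, Bmper and Tgfbr2.

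The number of peaks per gene was 1 at 30 members, 2 at 8, 3 at Bmpr1b, Smad5 and Smad7, 4 at Bmp3, Acvr2a and Smad6 and 5 at Inhba and Bmper. The mean was 1.674 ± 1.1364 (SD, n = 46 genes with a peak), beside 1.488 ± 1.0405 (SD, n = 8021) for other protein-coding genes with a peak. At least 2 peaks were assigned to 16 of 59 members (27.1%, interval 16.4 to 40.3%), against 11.3% of all genes. The 17 members with a peak beyond 10 kb had a median territory of 235 kb and the other 42 members one of 65.5 kb. The peak-rich members fell into different kinds. The 4 peaks of Smad6 and the 3 of Smad7 were all single-copy, whereas 4 of 5 peaks of Inhba and 3 of 4 peaks of both Acvr2a and Bmp3 were multi-copy.

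A peak is called multi-copy here when the 31-mers of its central 200 bp occur in the genome a median of at least 2 times, counted on both strands, and single-copy otherwise. Of the 77 peaks, 24 were multi-copy (31.2%, interval 21.1 to 42.7%), at 15 members (25.4%, interval 15 to 38.4%) against 15.5% of all genes, and the share among the other 14005 peaks was 46.6%. None of the 36 start-site peaks was multi-copy (0%, interval 0 to 9.74%), beside 2.64% of the other start-site peaks. Beyond 10 kb 23 of 33 were multi-copy (69.7%, interval 51.3 to 84.4%), beside 81.2% of other distal peaks. Single-copy peaks were found at 44 members against 29.4% of all genes, the 2 members lost being Gdf3 and Grem1. Single-copy peaks beyond 10 kb were found at 8 members (13.6%, interval 6.04 to 25.0%), against 4.76% of all genes: Bmp3, Inhba, Acvrl1, Tgfbr2, Smad5, Smad6, Smad7 and Bmper.

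Many of the distal peaks of different members lay over the same sequence. A first group, defined as peaks sharing at least 50 31-mers with another member peak, held 8 peaks at Acvr2a, Bmp3, Bmper, Bmpr1b and Inhba, among them all 3 distal peaks of Acvr2a, at 235, 1144 and 1172 kb upstream. A second group held 5 peaks at Bmper, Bmpr1b, Inhba and Ltbp1. Together they made up 13 of the 24 multi-copy peaks. The run shared in the first group was present unchanged under the peaks of Inhba at 380 kb (chr13:16482727-16482931, plus strand), of Acvr2a at 235 kb (chr2:48435279-48435483, minus) and of Bmpr1b at 165 kb (chr3:141428578-141428782, plus). That of the second group was unchanged under the peaks of Inhba at 596 kb (chr13:16699690-16699876, plus), of Bmper at 319 kb (chr9:22708079-22708265, plus) and of Ltbp1 at 107 kb (chr17:75297580-75297766, plus). Each is shown once, as it stands at Inhba, with the run common to the 3 genes in capitals and 20 flanking bases on either side, included in the coordinates, in lower case.
Group 1: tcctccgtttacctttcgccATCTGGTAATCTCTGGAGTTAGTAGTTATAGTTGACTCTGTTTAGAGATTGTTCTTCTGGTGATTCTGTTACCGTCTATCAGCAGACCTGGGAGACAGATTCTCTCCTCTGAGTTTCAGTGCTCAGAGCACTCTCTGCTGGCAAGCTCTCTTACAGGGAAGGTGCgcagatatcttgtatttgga
Group 2: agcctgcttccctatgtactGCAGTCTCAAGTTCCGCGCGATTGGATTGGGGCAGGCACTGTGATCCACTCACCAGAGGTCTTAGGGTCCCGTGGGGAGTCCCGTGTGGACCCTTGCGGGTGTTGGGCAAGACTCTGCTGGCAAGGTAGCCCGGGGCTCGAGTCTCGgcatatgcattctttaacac
The stretches shown at Inhba lie 541 and 559 bp from the peak centres and have 45.9 and 58.8% GC, so they do not show the central 200 bp to which the next values refer. Copy numbers of the central 31-mers ran from 631 to 3120 in the first group and from 317 to 2758 in the second, with GC contents of 63.5 to 68.0% and 62.0 to 63.5%. Outside the 59 genes, 1895 other peaks (13.5%) shared at least 50 31-mers with the first group and 95.3% of these lay beyond 10 kb, and 961 other peaks (6.86%) did so with the second, 97.3% of them beyond 10 kb. Reads from such sequence fit many positions, so which of the copies was bound cannot be told apart from this list, and the distal assignments of these 13 peaks rest on it. The same limit applies to the multi-copy peaks outside the groups. Their copy numbers ran from 3.5 at Bambi to 11393 at Inhbb, 25500 at Grem1 and 26598 at Gdf3.

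**Figure D5:**
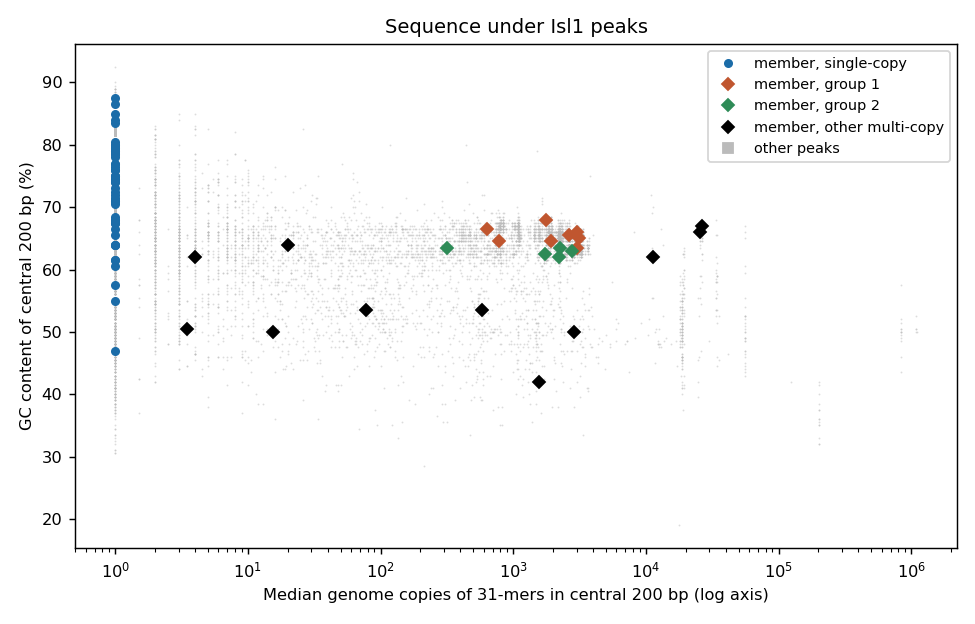
GC content (%) of the central 200 bp against the median number of genome copies of its 31-mers (log axis) for each peak, with the 14005 other peaks in grey. The 53 single-copy member peaks stand at the left, up to 87.5% GC, and the members of the groups sharing sequence (orange, first group; green, second) lie between 62.0 and 68.0% GC.

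The single-copy distal peaks differed among themselves in sequence, and stretches of 120 bp around their midpoints are shown to make this visible. They are from mm9, 5′ to 3′ on the strand of the assigned gene, with the E-box strings CAGCTG and CACGTG, the Smad-type string GGCGCC and the LIM-homeodomain type string CTAATG in capitals, the last read here on the opposite strand as CATTAG. The stretches were picked after their sequence had been seen. The positions are chr13:16192380-16192499 for Inhba at 88.8 kb, chr13:56854705-56854824 for Smad5 at 49.7 kb, chr9:63775494-63775613 for Smad6 at 94.3 kb, chr9:63855086-63855205 for Smad6 at 14.7 kb, chr9:116496088-116496207 for Tgfbr2 at 412 kb upstream and chr9:22962713-22962832 for Bmper at 64.7 kb upstream.
Inhba: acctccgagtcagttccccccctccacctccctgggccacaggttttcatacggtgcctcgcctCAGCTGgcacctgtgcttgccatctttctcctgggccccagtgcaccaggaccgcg
Smad5: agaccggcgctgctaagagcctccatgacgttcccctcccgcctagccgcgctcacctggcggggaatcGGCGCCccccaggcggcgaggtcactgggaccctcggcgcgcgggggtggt
Smad6, 94.3 kb: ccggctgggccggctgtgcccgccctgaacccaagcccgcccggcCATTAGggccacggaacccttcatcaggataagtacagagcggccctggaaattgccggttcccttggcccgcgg
Smad6, 14.7 kb: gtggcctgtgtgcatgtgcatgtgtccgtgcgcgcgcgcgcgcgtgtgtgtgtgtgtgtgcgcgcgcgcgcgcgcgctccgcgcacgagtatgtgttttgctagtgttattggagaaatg
Tgfbr2: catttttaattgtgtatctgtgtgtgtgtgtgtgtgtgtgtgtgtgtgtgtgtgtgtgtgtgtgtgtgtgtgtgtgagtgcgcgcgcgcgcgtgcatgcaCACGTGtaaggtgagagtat
Bmper: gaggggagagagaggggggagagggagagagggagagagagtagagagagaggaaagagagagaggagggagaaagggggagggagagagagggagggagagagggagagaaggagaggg
The stretches at Smad5 and at Smad6, 94.3 kb, had 74.2 and 68.3% GC with 15 and 10 CG dinucleotides. Those at Smad6, 14.7 kb, and at Tgfbr2 contained runs of TG and CG, and the Bmper stretch was made of G and A with few other bases and held 0 CG dinucleotides. The peaks over the last 3 were narrow, 381, 377 and 534 bp.

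The central 200 bp of the peaks were searched in both orientations for strings of transcription factor type. A match is a description of letters only. The LIM-homeodomain type string CTAATG was found in 1 of 77 member peaks, that of Smad6 at 94.3 kb (1.30%, interval 0.0329 to 7.02%), beside 0.628% of the other peaks, and CTAATTG was found in 0, which allows up to 4.68%, beside 0.186%. The homeodomain type string TAATTA, a palindrome that contains TAAT like the strings before it, was found in 0 beside 0.271%. AGATAA, of GATA type, was found at the start-site peaks of Smad5 and Fst (2.60%) beside 1.70% of others. GGCGCC, a palindrome of Smad type, was found in 18 peaks (23.4%, interval 14.5 to 34.4%) beside 19.5%. In the central 400 bp it was found in 32 (41.6%, interval 30.4 to 53.4%) beside 29.1%. Among start-site peaks alone, the 400-bp window held it in 23 of 36 (63.9%, interval 46.2 to 79.2%) beside 52.6% of others. Within 1 kb the 200-bp window held it in 11 of 36 peaks (30.6%, interval 16.3 to 48.1%) beside 32.6% of other start-site peaks, and 4 of the 11 were at the Smads Smad2, Smad3, Smad4 and Smad9. CAGACA, the other Smad-type string, was found in 3 peaks, at Tgfb1, Bmpr2 and Smad5 (3.90%, interval 0.811 to 11%), beside 11.8% of others. Within 1 kb its shares were 8.33% for members and 6.45% for others. The E-box strings, both palindromes, were found in 3 peaks for CACGTG (3.90% beside 2.53%) and 6 for CAGCTG (7.79% beside 8.83%).

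A wider list of 51 genes of these pathways that are not among the 59 was counted in the same way. A peak was assigned to 32 of them (62.7%, interval 48.1 to 75.9%) and a peak within 1 kb to 20 (39.2%, interval 25.8 to 53.9%), beside 39.7% and 24.8% of all genes. Intracellular components had peaks at 10 of 11 genes, within 1 kb at 8, which were the co-repressors and adaptors Tgif2, Tob1, Zeb2, Zfyve9, Tab1 and Strap and the ubiquitin ligases Trim33 and Nedd4l. Further antagonists and latency proteins had peaks at 12 of 15, within 1 kb at Nbl1, Fstl1, Fstl3, Chrdl2, Ltbp4 and Crim1, and processing proteases at 3 of 4, Tll1, Furin and Pcsk6. Among the other ligands 2 of 7 had a peak and among the other receptors and co-receptors 1 of 6. Of the transcriptional targets of the pathways, Id4 and Msx1 had a peak within 1 kb, whereas Id2, Id3 and Ctgf had no assigned peak. Ligands had a lower share than intracellular components in both lists. The receptor classes of the lists are not alike, since that of the wider list held Amhr2 and otherwise co-receptors. Among the 59 genes, 1 of 2 co-receptors had a peak, beside 6 of 7 type I and 4 of 4 type II receptors. These differences were not tested.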

How the data were processed

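Day-5 CPCs were profiled with 2 Isl1 ChIP replicates and 1 input, grouped by sample title. The authors aligned reads to mm9 with Bowtie2, removed duplicates with Picard 1.136, called peaks with MACS14, dropped blacklisted regions, kept areas common to both replicates with bedtools 2.15 and assigned each to the closest TSS with HOMER. The deposited values are coordinates and signed distances to the TSS in bp. Whether starts count from 0 or 1 is not stated, so starts and midpoints are uncertain by about 1 bp. Mapping settings place reads of repeated sequence at 1 of several positions.

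Of 14165 lines, 83 repeats were dropped. Sequence, features and start sites came from the NCBI m37 (mm9) genome with GENCODE vM1, and gene names from a RefSeq table, which matched 9280 of 9313 names. Protein-coding genes present in both (20306) formed the background. Scripts used Python 3.11.15, pandas 2.3.3 and scipy 1.17.1, and counting was checked on simulated data. Alternatives covered distance, width, copy number, merging, assignment and a string window of 400 bp. Every member is named, and the wider list is not reported here gene by gene. The members, lists and roles were chosen with earlier results of these data known, and GC bins, territories and sequence groups after seeing the data. Printed stretches at start sites were moved from the peak centre to the closest part without an annotated exon, for members on the RefSeq promoter table (40 of 59).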

Additional observations from a re-analysis of the deposited data

Results flagged for a closer look

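The Ski peak stood on 2 identical lines of the deposited list, which is the only repeat among the 77 member peaks (1.30%, exact 95% interval 0.0329 to 7.02%), while 77 of the 14005 other peaks were repeated (0.550%). It was counted once. The Ski peak was 2131 bp wide, and the repeated peaks of other genes had a median width of 1992 bp. The list does not say what a repeated line stands for, and this was not tested.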

How the results depend on the processing

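The number of members with a peak ranged from 35 to 48 around 46 under the other distances, widths, copy classes and assignments, and fell to 16 when at least 2 peaks were required. The share of member peaks within 1 kb of the TSS rose from 46.8% to 67.9% (36 of 53) with single-copy peaks alone, since every start-site peak was single-copy. Among the other peaks, 5238 of 7484 single-copy peaks lay within 1 kb, so the members' share was no higher there. The number of member peaks ranged from 53 (single-copy) to 83 (closest annotated protein-coding start). In a 400-bp window GGCGCC was found in 32 member peaks (41.6%, interval 30.4 to 53.4%) beside 29.1% of other peaks, a share outside the interval as it was not at 200 bp. Among start-site peaks alone, it was found in 23 of 36 (63.9%, interval 46.2 to 79.2%) beside 52.6% of others, a share inside the interval. CAGACA was found in 10 member peaks (13%) beside 19.4%. CTAATG was found in 2 (1 at 200 bp) beside 1.86%, TAATTA in 2 (0) beside 1.06%, AGATAA in 4 (2) beside 4.08%, CACGTG in 5 (3) beside 5.51% and CAGCTG in 11 (6) beside 16.8%, while CTAATTG stayed at 0. The counts by role stayed within 1.5 times their value for peaks within 10 kb, single-copy peaks and peaks of at least 500 bp. Within 1 kb the ligands with a peak fell from 15 to 8. Leaving out each replicate could not be computed, because the list combines both. No paired analysis was possible because the list has no values per sample. Without read counts, no limit from depth can be given.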

Other observations

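Peaks whose closest annotated protein-coding TSS was that of a member, but which the deposited list gave to another gene, numbered 10. Besides the start-site peak of Acvr1, they were 3 for Bmp2 assigned to Mir3090, 2 for Tgfb2 assigned to A730004F24Rik, 2 for Acvr2a assigned to 1700019E08Rik and 1 each for Grem1 and Smad7. Start sites of non-coding genes were left out of this comparison. Except at Acvr1, the start of the gene named in the list was nearer than that of the member, such as 9.20 kb for Mir3090 beside 21.8 kb for Bmp2. The closest of the Bmp2 peaks lay 21.8 kb from the Bmp2 TSS (chr2:133399317-133399979), and the peak for Grem1 lay 29.1 kb away (chr2:113568984-113570363). Of the 10, only the Acvr1 peak and 1 of the Tgfb2 peaks (chr1:188249827-188250463, 636 bp wide, 50.5% GC) were at single-copy sequence.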
